A study of Homo sapiens with 8 samples.

Results

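The enzymes that make serine and glycine and move one-carbon units onto folate were followed by their gene symbols (PHGDH, PSAT1, PSPH, SHMT1, SHMT2, MTHFD1, MTHFD1L, MTHFD2, ALDH1L2 and GLDC). Of these 10 genes, 9 were measured, each by 1 probe set, among 17687 named genes. SHMT1, the cytosolic serine hydroxymethyltransferase, carried no named probe set in the annotation used and was not analysed here. KBM5 and K562 are established cell lines from patients with chronic myeloid leukaemia, driven by the BCR-ABL1 kinase that imatinib inhibits. Total RNA of each line was measured on 1 array for each of 4 states: the combination of OR21 and IM, IM (imatinib) alone, OR21 alone, and an untreated control. OR21, a demethylating agent per the series title, was given at 100 nM for 3 days, and IM at 1000 nM for 24 hours before RNA was taken. The combination received both, OR21 first.

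In cells, serine is built from a glycolytic intermediate by PHGDH, PSAT1 and PSPH acting in that order. SHMT2 in mitochondria and SHMT1 in the cytosol split serine into glycine and a one-carbon unit carried by tetrahydrofolate. MTHFD2, MTHFD1L and ALDH1L2 oxidise or release that unit in mitochondria, MTHFD1 handles it in the cytosol for purine and thymidylate synthesis, and GLDC breaks glycine down. PHGDH, PSAT1, SHMT2 and MTHFD2 are known as genes that proliferating cells use heavily and that the transcription factors ATF4 and MYC can switch on.

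Every value below is a deposited linear intensity or its log2. An array's background was taken as the 95th percentile of its 612 negative controls, and came to 161 to 263. The median probe set had 77.8 to 83.3. Between 5874 and 7083 of the 17687 genes were above background on an array. Each state of each line has a single array, and no spread between replicates of a state was measured. The model of both lines took the lines as repeats of a treatment. The model per line took as repeats the 2 array pairs that differ by a drug in that line, 1 pair with the other drug present and 1 without it. Its errors assume that log2 effects of the drugs are additive. P-values therefore measure only the spread between these arrays, and the number of arrays limits their precision. Because RNA was pooled from whole cultures, fewer cells of a kind and less RNA per cell cannot be told apart.

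The markers of each line were checked on the same arrays. In KBM5, 3 to 5 of 5 measured myeloid markers and 1 of 4 erythroid markers (the transferrin receptor TFRC) were above background. In K562, 0 of 5 myeloid and 4 of 4 erythroid markers were. Of 5 lymphoid markers, 0 or 1 were above background on an array, and of 5 epithelial and stromal markers, 0 or 1 in KBM5 and 2 in K562. The marker sums also differed with IM. The summed intensity of the erythroid markers in K562 was 169680 in the combination, 135310 with IM, 68372 with OR21 and 44172 in control. In KBM5 it was 1665 in the combination, 2282 with IM, 19864 with OR21 and 19674 in control. The summed myeloid markers in KBM5 were 120970 in the combination, 77269 with IM, 96145 with OR21 and 44889 in control, and in K562 they ranged from 109 to 133. Single markers did not all follow these sums. With IM in K562, HBE1 differed by 3.10 and KLF1 by 1.54 on the log2 scale, but GATA1 by -0.05 and TFRC by 0.21. In KBM5 TFRC, the only erythroid marker above background, differed by -3.44. Of the myeloid markers in KBM5, CSF3R differed by 3.49, AZU1 by 1.29 and CEBPA by 1.15, but PRTN3 by -0.45 and MPO by -0.99. The sizes for CSF3R and MPO are not exact, since some of their arrays were at background. The part of the markers in the results on the enzymes was not tested.

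Promoter sequences of the enzymes that shifted most are shown because these genes moved together on the arrays. They come from RefSeq (GRCh38.p14), which held 7 of the 10 genes in the table supplied. Each is the 250 bases before the annotated start, written 5′ to 3′ along the gene, and capitals mark CCAAT boxes and CACGTG E-boxes.
PHGDH, chr1:119711684-119711933, plus strand: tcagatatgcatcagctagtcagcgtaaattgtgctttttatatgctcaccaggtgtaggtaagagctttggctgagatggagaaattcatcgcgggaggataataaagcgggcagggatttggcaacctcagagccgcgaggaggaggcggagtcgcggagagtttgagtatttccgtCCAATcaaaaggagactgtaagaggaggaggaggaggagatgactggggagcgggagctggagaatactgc
PSAT1, chr9:78296875-78297124, plus strand: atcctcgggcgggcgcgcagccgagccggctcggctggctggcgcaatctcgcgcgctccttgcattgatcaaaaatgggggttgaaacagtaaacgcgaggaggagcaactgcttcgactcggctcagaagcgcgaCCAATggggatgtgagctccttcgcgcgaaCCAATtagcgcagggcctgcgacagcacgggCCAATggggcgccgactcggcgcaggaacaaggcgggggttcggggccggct
MTHFD2, chr2:74198365-74198614, plus strand: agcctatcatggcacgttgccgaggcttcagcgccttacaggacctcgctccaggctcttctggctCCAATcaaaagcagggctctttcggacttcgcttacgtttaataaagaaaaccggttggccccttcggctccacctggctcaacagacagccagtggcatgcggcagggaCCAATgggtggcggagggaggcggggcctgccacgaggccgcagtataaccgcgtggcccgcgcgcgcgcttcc
MTHFD1, chr14:64388103-64388352, plus strand: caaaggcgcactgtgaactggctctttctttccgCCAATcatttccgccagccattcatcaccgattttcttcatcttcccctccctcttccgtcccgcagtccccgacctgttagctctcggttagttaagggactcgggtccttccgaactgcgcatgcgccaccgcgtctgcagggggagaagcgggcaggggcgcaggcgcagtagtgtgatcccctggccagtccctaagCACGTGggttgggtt
The searched motifs were TGATGNAA (the composite element that ATF4 and C/EBP proteins can bind), CACGTG (the E-box that MYC can bind) and CCAAT (the NF-Y box, added after the sequences had been seen), on both strands. PSAT1 held 3 CCAAT boxes, beginning 113, 83 and 52 bases before the start. PHGDH held 1, beginning 71 bases before the start, and MTHFD2 held 2, at 184 and 74 bases. In MTHFD1 a CACGTG began 15 bases before the start. A CCAAT box was also in the windows of MTHFD1 (216 bases), SHMT1, GLDC and MTHFD1L, so that all 7 genes in the table held one, among them GLDC, which was at background on every array. TGATGNAA was not in these 4 windows, and CACGTG was in MTHFD1 alone among them.

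MTHFD1L has 4 annotated starts, and only stretches of 30 bases around its motifs are shown, since some of its transcripts begin upstream of them. Capitals mark the TGATGCAA match in the first stretch and the CACGTG in the second.
MTHFD1L, chr6:150866346-150866375, plus strand: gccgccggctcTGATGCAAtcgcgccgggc
MTHFD1L, chr6:150866320-150866349, plus strand: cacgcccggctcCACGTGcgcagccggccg
The TGATGCAA began 129 bases before one start and 90 bases before another, and the CACGTG 154 and 115 bases before the same starts. Of 35116 windows of the same length in the table, 3.14% held TGATGNAA, 6.34% CACGTG and 32.0% CCAAT. These shares are per window, while the CCAAT boxes above were counted per gene, so the counts are not directly comparable. Not every MTHFD1L window held a CCAAT box. A match describes the letters only.

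With IM, PHGDH, PSAT1, SHMT2, MTHFD2, MTHFD1L and MTHFD1 fell in both lines, and all of them but SHMT2 fell further in KBM5. In the model of both lines, 6 of 9 measured enzymes were called lower with IM (limma, Benjamini-Hochberg adjusted p under 0.05 over all genes). Of all 17687 genes, 4.87% were called lower. The median log2 difference of the 9 enzymes was -2.04, and that of all genes 0.06. All 4 arrays with IM lay below all 4 arrays without it for PHGDH, PSAT1, SHMT2, MTHFD2, MTHFD1L and MTHFD1, a pattern that 5.35% of all genes showed. The same 6 enzymes were at least 2-fold lower in all 4 array pairs with and without IM, as were 1.72% of all genes. These 6 calls were not all kept when single arrays were left out. Calls over all genes also fell in every one of these refits, which have fewer residual degrees of freedom. A lost call therefore cannot be laid to the array left out. Without the K562 control, 6 enzymes were called, but ALDH1L2 (adjusted p = 0.0485, limma) took the place of SHMT2. The count was 4 without the K562 combination (MTHFD2 and SHMT2 were lost) and 2 without the K562 IM array (PSAT1 and MTHFD2). It was 1, PSAT1, without the K562 OR21, KBM5 control or KBM5 combination array, and 0 without the KBM5 OR21 or KBM5 IM array. In every one of these refits the differences of the 6 enzymes stayed negative.

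**Figure D1:**
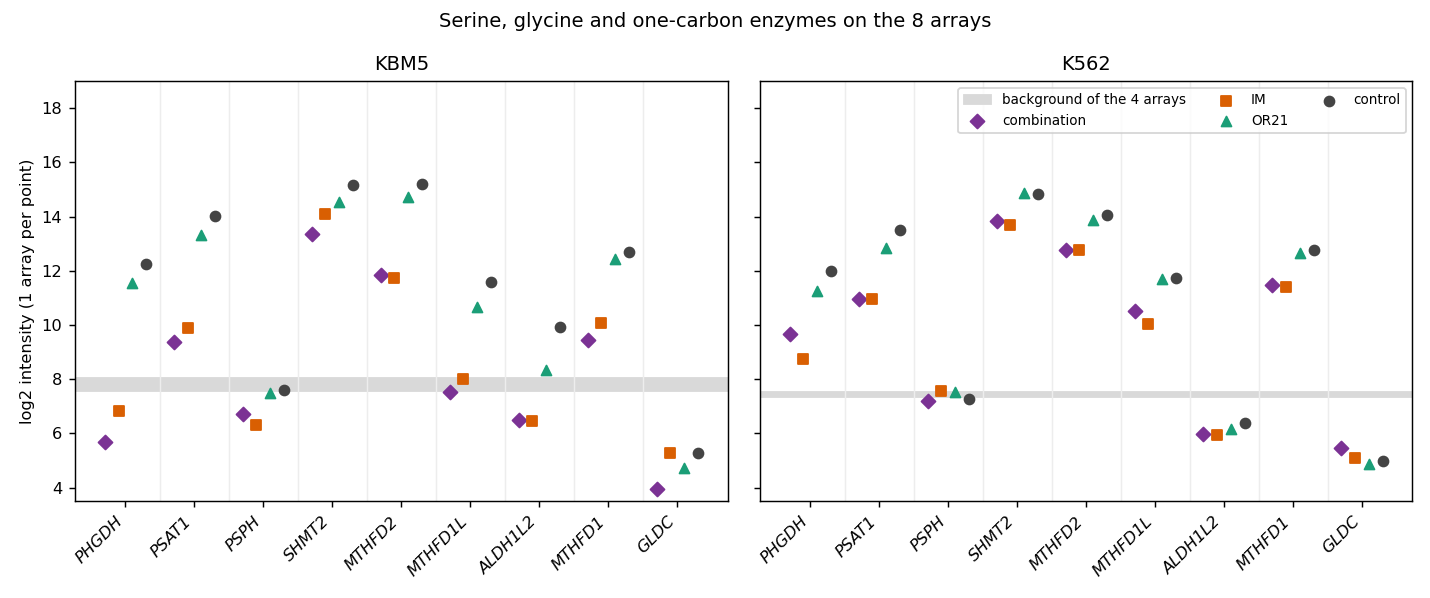
Log2 intensity of each enzyme on the 4 KBM5 arrays (left) and the 4 K562 arrays (right), 1 point per array, with the range of the arrays' backgrounds as a grey band. Combination and IM points lie below OR21 and control points for PHGDH, PSAT1, SHMT2, MTHFD2, MTHFD1L and MTHFD1 in both lines, while ALDH1L2 is above the band on 2 KBM5 arrays and on 0 K562 arrays.

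PHGDH, the dehydrogenase that commits 3-phosphoglycerate to serine synthesis, had intensities in KBM5 of 51.1 in the combination, 114 with IM, 2973 with OR21 and 4855 in control. K562 cells had 805 in the combination, 427 with IM, 2429 with OR21 and 4053 in control. The IM arrays were low in both lines and did not overlap with the others. In KBM5, PHGDH was not above background on either array with IM, so it was at least 18.0-fold lower there (adjusted p = 7.19e-06, limma). That bound rests on the 95th percentile as background. The 99th percentile was 1639 on the KBM5 combination array and 768 on the KBM5 IM array, and would give a smaller bound. In K562 the log2 difference of PHGDH with IM was -2.42 ± 0.35 (SE, adjusted p = 0.00156, limma), a 5.35-fold lower level. Without the K562 control or the K562 IM array, that call was lost. Over both lines the measured log2 difference was -4.03 ± 0.70 (adjusted p = 0.0231, limma), and 2 of its 4 arrays with IM were not above background, which leaves the size inexact. Only without the K562 control or the K562 combination array was that call kept.

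PSAT1, the aminotransferase of the second step, stayed above background on all 8 arrays. In KBM5 it had 655 in the combination, 941 with IM, 10285 with OR21 and 16423 in control. The K562 intensities were 1983 in the combination, 2002 with IM, 7386 with OR21 and 11521 in control. All arrays with IM were low, and OR21 arrays lay between them and the controls in both lines. The log2 difference with IM was -4.05 ± 0.25 in KBM5 (16.6-fold lower, adjusted p = 7.13e-06) and -2.21 ± 0.25 in K562 (4.63-fold lower, adjusted p = 0.000392; limma). Over both lines it was -3.13 ± 0.39 (adjusted p = 0.0106, limma). That last call was lost without the KBM5 OR21 or the KBM5 IM array.

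PSPH, the phosphatase of the third step, was close to background throughout. In KBM5 it had 104 in the combination, 78.3 with IM, 182 with OR21 and 192 in control, none of them above background. In K562 the values were 146 in the combination, 190 with IM, 185 with OR21 and 155 in control, of which the IM and OR21 arrays were above background. The arrays with IM were the lower ones in KBM5 and overlapped with the others in K562. No fold is given, although the fit in KBM5 called PSPH lower (adjusted p = 0.0153, limma).

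SHMT2, the mitochondrial hydroxymethyltransferase, was brighter than 97.5% or more of the named genes on every array. In KBM5 it had 10512 in the combination, 17365 with IM, 23555 with OR21 and 36244 in control. In K562 it had 14539 in the combination, 13111 with IM, 29950 with OR21 and 29192 in control. The arrays with IM were low in both lines, with the KBM5 OR21 array between them and the control of its line. Its log2 difference with IM was -1.11 ± 0.23 in KBM5 (adjusted p = 0.00588) and -1.10 ± 0.23 in K562 (adjusted p = 0.0110; limma), 2.16-fold and 2.14-fold lower. The K562 call was lost without any 1 of the 4 K562 arrays. The call over both lines (-1.11 ± 0.22, adjusted p = 0.0328, limma) was lost when any 1 of the 8 arrays was left out, and after quantile normalization (adjusted p = 0.0621).

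MTHFD2, the mitochondrial dehydrogenase and cyclohydrolase, had intensities in KBM5 of 3677 in the combination, 3401 with IM, 26682 with OR21 and 37242 in control. K562 cells had 6877 in the combination, 6912 with IM, 14981 with OR21 and 17139 in control. The KBM5 control was the brightest array and the KBM5 arrays with IM the dimmest, so KBM5 was the brighter line without IM and the dimmer one with it. The log2 difference with IM was -3.16 ± 0.25 in KBM5 (8.91-fold lower, adjusted p = 2.10e-05) and -1.22 ± 0.25 in K562 (2.32-fold lower, adjusted p = 0.00980; limma). The K562 call was lost without any 1 of the 4 K562 arrays. Over both lines it was -2.19 ± 0.41 (adjusted p = 0.0280, limma), a call kept without the K562 control or the K562 IM array, lost without any 1 of the other 6, and lost with log2(value + 16) (adjusted p = 0.0520).

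MTHFD1L, the mitochondrial formyltetrahydrofolate synthetase that releases formate, had intensities in KBM5 of 186 in the combination, 259 with IM, 1612 with OR21 and 3076 in control. The K562 intensities were 1458 in the combination, 1042 with IM, 3311 with OR21 and 3372 in control. The KBM5 combination array was not above background, and the IM arrays were low in both lines. In KBM5 the measured log2 difference with IM was -3.34 ± 0.25 (adjusted p = 1.71e-05, limma), whose size is not exact for that reason. In K562 it was -1.44 ± 0.25 (2.71-fold lower, adjusted p = 0.00434, limma), a call lost without the K562 control or the K562 IM array. Over both lines it was -2.39 ± 0.44 (adjusted p = 0.0269, limma), not exact either, and the call was kept only without the K562 control or the K562 combination array.

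ALDH1L2, the mitochondrial enzyme that oxidises 10-formyltetrahydrofolate to carbon dioxide, was above background on 2 KBM5 arrays and 0 K562 arrays. In KBM5 it had 90.2 in the combination and 88.3 with IM, both at background, 319 with OR21 and 964 in control. In K562 the values were 63.1 in the combination, 61.3 with IM, 71.8 with OR21 and 82.7 in control, all at background. ALDH1L2 was thus high on the KBM5 control array, lower on the KBM5 OR21 array and undetected on the other 6. With IM it was at least 2.63-fold lower in KBM5 (adjusted p = 0.000372, limma), and in K562 no fold can be given. Detection and bound rest on the 95th percentile as background. With the 99th, ALDH1L2 and PSPH were above it on 0 of 8 arrays, MTHFD1L on 4 and PHGDH on 5.

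MTHFD1, the cytosolic enzyme with 3 activities that feeds formate into purine and thymidylate synthesis, had intensities in KBM5 of 702 in the combination, 1066 with IM, 5541 with OR21 and 6695 in control. In K562 it had 2818 in the combination, 2729 with IM, 6397 with OR21 and 7028 in control. The 2 lines had similar intensities without IM and lay apart with it, KBM5 lower. The log2 difference with IM was -2.82 ± 0.24 in KBM5 (7.04-fold lower, adjusted p = 2.83e-05) and -1.27 ± 0.24 in K562 (2.42-fold lower, adjusted p = 0.00581; limma). The K562 call was lost without any 1 of the 4 K562 arrays. Over both lines it was -2.04 ± 0.35 (adjusted p = 0.0220, limma), again a call kept only without the K562 control or the K562 combination array. GLDC, the decarboxylase of the glycine cleavage system, was at background on all 8 arrays, between 15.3 and 44.0, and no fold is given.

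Counted within each line, 8 of 9 enzymes were called lower with IM in KBM5, where 10.6% of all genes were called lower. In K562 it was 6 of 9, where 8.05% of all genes were called lower. The medians of the 9 were -2.82 in KBM5 and -1.22 in K562, against 0.03 and 0.07 over all genes. The 8 in KBM5 include PSPH, which was not above background on any KBM5 array. The medians also take in GLDC, at background in both lines, and ALDH1L2, at background in K562. Without 1 array of a line, the model per line fits that line exactly, and the residual error comes from the other line alone. Calls lost in such refits, here and for the single enzymes above, therefore cannot show which arrays decide them. Leaving out 1 array at a time gave 7 or 8 enzymes in KBM5. In K562 it gave 1 enzyme without the K562 control or the K562 IM array, 3 without the K562 OR21 or the K562 combination array, and 6 without any KBM5 array.

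**Figure D2:**
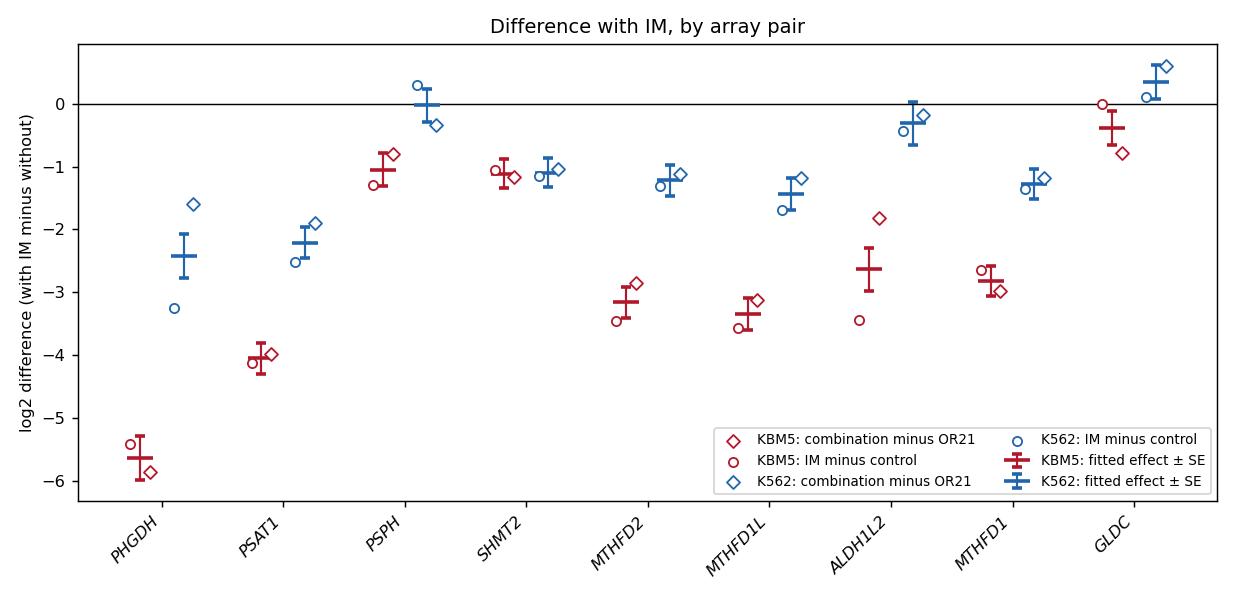
Log2 difference of each enzyme with IM against without it, in KBM5 (red, left of each pair) and K562 (blue, right); open symbols are single array pairs and bars the fitted effect ± SE of the model per line. PHGDH, PSAT1, MTHFD2, MTHFD1L and MTHFD1 lie lower in KBM5 than in K562, whereas SHMT2 lies near -1.11 and -1.10; values of enzymes at background, such as GLDC, have no interpretable size.

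The difference of the IM effect between the lines was then tested directly. Of the 9 enzymes, 6 were called lower in KBM5 than in K562, where 4.90% of all genes were called lower. The difference of log2 differences, KBM5 minus K562, was -3.22 ± 0.50 for PHGDH (adjusted p = 0.00278), -1.94 ± 0.35 for MTHFD2 (adjusted p = 0.00658) and -1.91 ± 0.36 for MTHFD1L (adjusted p = 0.00778; limma). It was -1.84 ± 0.35 for PSAT1 (adjusted p = 0.00878) and -1.54 ± 0.33 for MTHFD1 (adjusted p = 0.0156; limma). For ALDH1L2 it was -2.33 ± 0.49 (adjusted p = 0.0132, limma), but its K562 side is a background value. SHMT2 gave -0.01 ± 0.33 with a 95% interval of -0.74 to 0.71 (adjusted p = 0.988, limma), so a difference within that interval remains possible. The count of 6 was 1 without the K562 OR21 or the K562 combination array, 3 without the K562 control or the K562 IM array, and 6 without any KBM5 array. PHGDH kept its call without each of the 8 arrays.

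Set line against line over the 4 states, MTHFD1L was lower in KBM5 (measured log2 difference -1.54 ± 0.44, adjusted p = 0.0355, limma), not exact because 1 KBM5 array was at background. ALDH1L2 was higher in KBM5, at least 1.29-fold (adjusted p = 0.0443, limma). That is 1 of 9 enzymes in each direction, where 17.0% of all genes were called lower in KBM5 and 15.0% higher. These differences are averages over the 4 states and varied with treatment. MTHFD1L in KBM5 against K562 was 186 against 1458 in the combination and 259 against 1042 with IM. It was 1612 against 3311 with OR21 and 3076 against 3372 in control. ALDH1L2 was above background only on the KBM5 OR21 and control arrays. Both calls were lost after quantile normalization (adjusted p = 0.0610 and 0.0510). With 1 array left out, 0 of them were called without the K562 OR21 or the KBM5 OR21 array, and 1 without any other array. The remaining 7 enzymes were not called, among them PHGDH at -1.33 ± 0.70 (adjusted p = 0.209) and MTHFD2 at 0.01 ± 0.41 (adjusted p = 0.993).

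OR21 gave smaller differences, and none of the enzymes was called. In KBM5 the OR21 array was lower than the control for 9 of 9 enzymes and for 51.9% of all genes, with a median log2 difference of -0.62 (all genes -0.02). PSPH and GLDC are counted there, although both their arrays were at background. Of these, 1 enzyme (ALDH1L2) was at least 2-fold lower, as were 1.76% of all genes. In K562 the OR21 array was lower for 7 of 9 (ALDH1L2 and GLDC at background) and for 52.4% of all genes, with a median of -0.14 (all genes -0.02), and 0 enzymes were 2-fold lower, against 0.622% of all genes. PHGDH with OR21 against control differed by -0.71 in KBM5 and -0.74 in K562 on the log2 scale. PSAT1 differed by -0.68 in KBM5 and -0.64 in K562. These 2 enzymes of serine synthesis were thus lower in either line, while MTHFD1L differed by -0.93 in KBM5 and -0.03 in K562, and SHMT2 by -0.62 in KBM5 and 0.04 in K562.

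On top of IM the picture was mixed. The combination against IM was lower for 6 of 9 enzymes in KBM5 and for 52.6% of all genes. Of these, 2 enzymes were at least 2-fold lower (PHGDH and GLDC, each at background on both arrays), against 3.01% of all genes. In K562 it was lower for 3 of 9 enzymes and for 50.1% of all genes, and 0 enzymes were at least 2-fold lower, against 0.820% of all genes. PHGDH was 0.91 higher on the log2 scale in the combination than with IM in K562. PSAT1 differed by -0.52 in KBM5 and -0.01 in K562, and SHMT2 by -0.72 in KBM5 and 0.15 in K562. SHMT2 was therefore lower with OR21 in both KBM5 pairs and slightly higher in both K562 pairs.

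**Figure D3:**
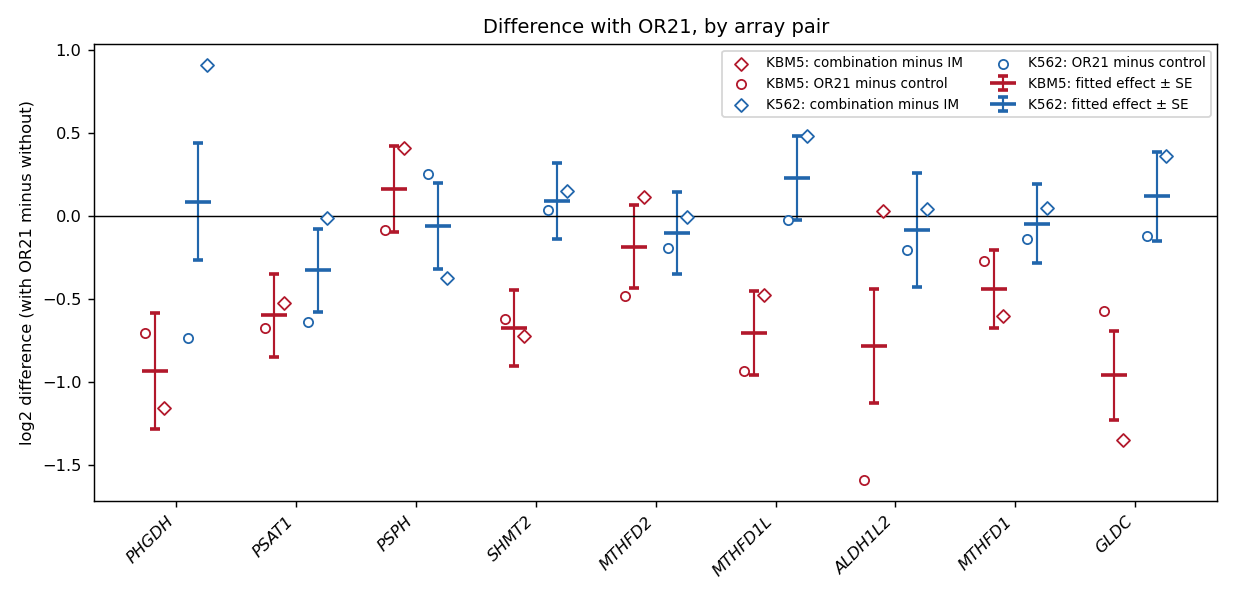
Log2 difference of each enzyme with OR21 against without it, in KBM5 (red, left of each pair) and K562 (blue, right); open symbols are single array pairs and bars the fitted effect ± SE of the model per line. In KBM5 both pairs of PHGDH, PSAT1, SHMT2, MTHFD1L and MTHFD1 lie below 0, and in K562 the pairs lie on both sides of 0 for PHGDH, MTHFD1L and MTHFD1; 0 of 9 enzymes were called.

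The OR21 effect in KBM5 was called for 0 of 9 enzymes (limma), where 0.543% of all genes were called in either direction; 6 of 9 enzymes, GLDC at background among them, and 2220 of 17687 genes had an unadjusted p under 0.05. The fitted log2 differences there were -0.93 ± 0.35 for PHGDH (adjusted p = 0.311), -0.67 ± 0.23 for SHMT2 (adjusted p = 0.277) and -0.60 ± 0.25 for PSAT1 (adjusted p = 0.364; limma). With an intensity trend and robust moderation SHMT2 was called in KBM5 (adjusted p = 0.0325, limma). In K562 0 of 9 enzymes were called and 0 had an unadjusted p under 0.05 (limma), where 0.0905% of all genes were called. Over both lines limma called 0% of all genes for OR21, with 622 genes and 0 enzymes at an unadjusted p under 0.05. The difference of the OR21 effect between the lines was called for 0 of 9 enzymes (0.102% of all genes), with 3 enzymes, GLDC among them, and 1352 of 17687 genes at an unadjusted p under 0.05.

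The combination against control, the comparison named in the series title, was at least 2-fold lower for 8 of 9 enzymes in KBM5 and 6 of 9 in K562, against 9.46% and 7.06% of all genes. The 8 include GLDC, whose 2 arrays were both at background. PSAT1 was 25.1-fold lower in KBM5 and 5.81-fold lower in K562. Over both lines, with 2 arrays a side, limma called 0 of 9 enzymes, and 0.198% of all genes in either direction; 7 enzymes and 2806 of all genes had an unadjusted p under 0.05. The nearest was PSAT1 at -3.59 ± 0.56 (adjusted p = 0.0628, limma). PHGDH stood at -4.45 ± 0.99 (adjusted p = 0.105, limma), a size that is not exact. The combination against IM was called for 0% of all genes (605 at an unadjusted p under 0.05, 0 of them enzymes of the list), and so was the departure from additive effects of OR21 and IM (274 genes, 0 enzymes; limma).

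Genes around the pathway were counted next, with the calls of the model of both lines for IM. In that model 4.87% of all genes were called lower and 2.75% higher. Of 9 genes listed for serine and glycine supply, 3 fell with IM and 0 rose (median -0.49). PGAM1, on this list, is the phosphoglycerate mutase of glycolysis. It uses the 3-phosphoglycerate that PHGDH also takes and does not itself supply serine. PGAM1 fell by 2.30 ± 0.30, the neutral amino acid carrier SLC38A1 by 2.01 ± 0.28 and SLC1A5 by 1.62 ± 0.19, all on the log2 scale. SFXN1, the mitochondrial serine carrier, was not above background on the KBM5 combination and IM arrays and was at least 2.47-fold lower there (adjusted p = 0.000123, limma). In K562 SFXN1 differed by -0.59 ± 0.24 and was not called (adjusted p = 0.152, limma). Other genes of this list were also called in 1 line only. SLC38A2 was lower in K562 (-1.09 ± 0.24), the glycine carrier SLC6A9 higher in K562 (2.05 ± 0.43) and SFXN3 higher in KBM5 (1.40 ± 0.32). SLC6A9 was at background in KBM5 and SFXN3 in K562. Besides GLDC, 3 genes of glycine cleavage or other glycine reactions were measured (GCSH, DLD and GCAT). Of these 1 fell, the glycine cleavage carrier protein GCSH (-2.04 ± 0.26).

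Of 8 genes of folate uptake, retention and reduction, 2 fell and 0 rose (median -0.26). SLC19A1, the reduced folate carrier, had 2252 in the KBM5 combination, 1268 with IM, 6149 with OR21 and 6220 in the KBM5 control. K562 cells had 616 in the combination, 626 with IM, 5614 with OR21 and 5089 in control. Both the KBM5 and the K562 arrays with IM were low, and the log2 difference over both lines was -2.49 ± 0.31 (adjusted p = 0.0104, limma). SLC25A32, which brings folate into mitochondria, fell by 2.21 ± 0.27 on the log2 scale (adjusted p = 0.0100, limma).

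Of 8 other folate-dependent enzymes, 0 were called in both lines together (median -0.24). Thymidylate synthase TYMS, which uses the one-carbon unit to make dTMP, had 739 in the KBM5 combination, 401 with IM, 15199 with OR21 and 15979 in the KBM5 control. The K562 intensities were 16353 in the combination, 17735 with IM, 16546 with OR21 and 20693 in control. Only the KBM5 arrays with IM were low. Its log2 difference with IM was -4.84 ± 0.27 in KBM5 (adjusted p = 5.53e-06) and -0.12 ± 0.27 in K562 (adjusted p = 0.837), and the difference between lines was -4.72 ± 0.39 (adjusted p = 0.000136; limma).

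Purine synthesis, which takes up 2 formyl groups per ring in its GART and ATIC steps, had 6 of 12 measured genes called lower with IM and 0 higher (all genes 4.87% and 2.75%), with a median of -1.24. PAICS fell by 2.50 ± 0.49, the first enzyme PPAT by 2.15 ± 0.44, PFAS by 1.86 ± 0.28 and GART by 1.48 ± 0.17 on the log2 scale. PAICS had 2862 in the KBM5 combination, 2903 with IM, 36594 with OR21 and 38336 in control, and in K562 15505 in the combination, 17250 with IM, 42180 with OR21 and 38771 in control. As with MTHFD1, the lines were alike without IM and KBM5 was the lower with it. The IM effect was called lower in KBM5 than in K562 for 5 of the 12 and higher for 1, against 4.90% and 5.25% of all genes. The 5 include ADSS1, which was at background on every KBM5 array and was called higher with IM in K562. They also include PRPS1, at background on the KBM5 arrays with IM.

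Of 10 genes of the methionine cycle and transsulfuration, 1 fell with IM, the cystathionine synthase CBS, which was above background on the K562 arrays alone (K562 log2 difference -1.05 ± 0.24). Of 9 genes that consume serine or glycine, 0 fell and 2 rose. SPTLC2, a subunit of the serine palmitoyltransferase that starts sphingolipid synthesis, had 34478 in the KBM5 combination, 38819 with IM, 11382 with OR21 and 9595 in control. In K562 the values were 3955 in the combination, 3887 with IM, 1332 with OR21 and 1399 in control. It was higher on all arrays with IM within its line, by 1.66 ± 0.18 on the log2 scale (adjusted p = 0.00794, limma). The serine racemase SRR, at background in KBM5, was the other (K562 log2 difference 1.19 ± 0.26).

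Of 15 genes that are ATF4 or its known targets, 6 fell with IM and 0 rose (all genes 4.87% and 2.75%; median -0.73). The asparagine synthetase ASNS was at least 11.1-fold lower in KBM5 and fell by 1.60 ± 0.24 on the log2 scale in K562. TRIB3 was at background on all 4 arrays with IM and at least 2.07-fold lower over both lines. EIF4EBP1 fell by 1.88 ± 0.33, and the leucine carrier SLC7A5 had a measured difference of -4.03 ± 0.40, not exact in size. ATF4 itself differed by -0.61 ± 0.18 (adjusted p = 0.0924, limma). The cystine carrier SLC7A11, also on the list, rose in KBM5 by 1.48 ± 0.28 (adjusted p = 0.00366, limma) and differed by 0.37 ± 0.28 in K562.

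**Figure D4:**
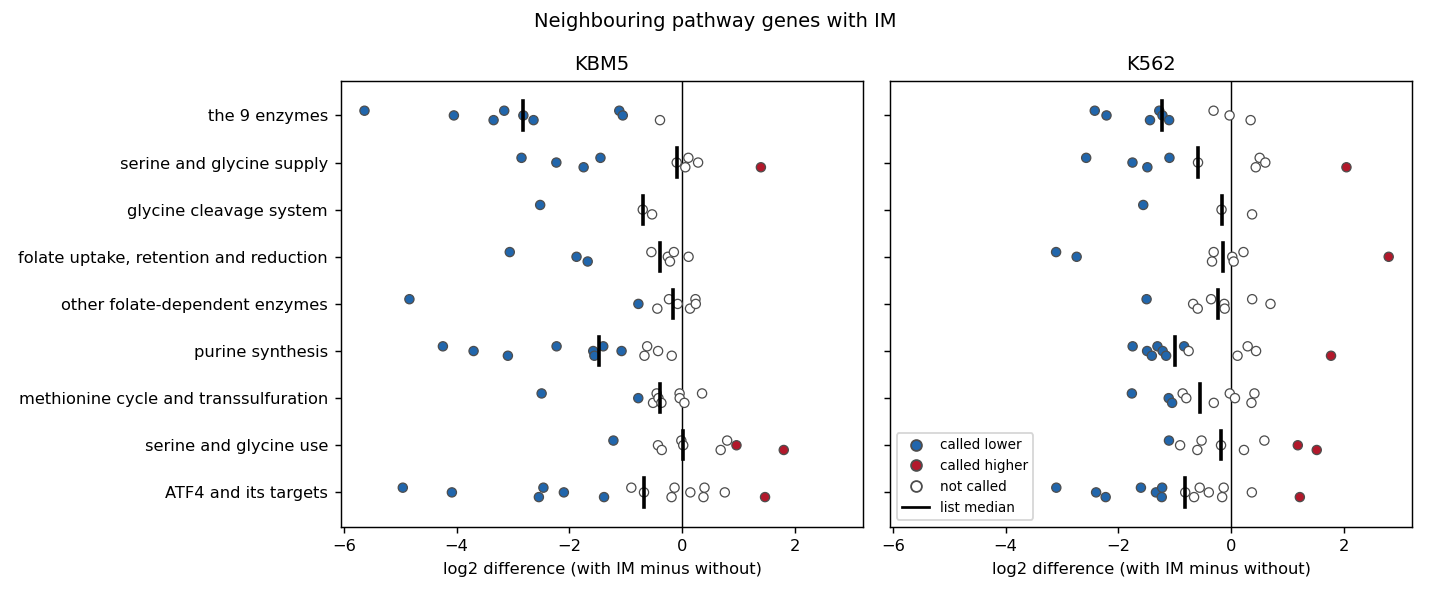
Log2 difference with IM of the 9 enzymes and of each list of neighbouring genes in KBM5 (left) and K562 (right), 1 point per gene, with blue for called lower, red for called higher and black lines for list medians; genes at background are included. The medians of the 9 enzymes lie at -2.82 in KBM5 and -1.22 in K562, and SPTLC2 is among the red points of serine and glycine use in both lines.

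Across the 8 arrays, the genes nearest to each enzyme were found by Pearson's r of log2 intensity among 7098 genes above background on at least 4 arrays. PHGDH lay nearest to the sterol demethylase CYP51A1 (r = 0.992), to MTHFD1 (0.990) and to the sterol isomerase EBP (0.989). PSAT1 lay nearest to BCAT1, the cytosolic branched-chain aminotransferase (0.993), MTHFD1 to the purine enzyme PPAT (0.993), MTHFD1L to TIPIN (0.994) and MTHFD2 to the glycolytic enzyme TPI1 (0.996). SHMT2 had its nearest gene, SART3, at 0.976. Among the enzymes themselves, PHGDH and PSAT1 had r = 0.976 and MTHFD1 and MTHFD1L 0.981, while SHMT2 with MTHFD1L gave 0.797. These values describe 8 arrays that share 2 lines and the IM step, and each gene that moved with IM shares that step.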

How the data were processed

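Biotin-labelled total RNA of KBM5 and K562 was measured on 8 arrays, and the deposited table holds a linear intensity for each of 24351 probe sets, as the authors made it. How it was summarized and normalized, and with which software, is not given in the sources used here. Names came from the supplied platform annotation: 17709 probe sets had 1 gene symbol, 0 had several, and 3739 transcript clusters had none. For the 20 genes with several probe sets, none of them an enzyme described here, the one with the highest mean was used.

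Intensities were taken as log2 without further normalization and fitted over all 17687 genes with limma 3.58.1 in R 4.3.3. The model of both lines held treatment and line (3 residual and 3.765 prior degrees of freedom). The model per line held a baseline, an OR21 and an IM term for each line (2 residual and 8.309 prior degrees of freedom). P-values of the 12 contrasts were adjusted by Benjamini-Hochberg over all genes. Where one side was at background on every array, the fold is a bound against the 95th percentile of the negative controls, and where both were, none is given. On simulated data of 17687 genes with known changes of 2 and 4 on the log2 scale, the IM fits recovered 100% of each. Smaller changes, such as that of SHMT2, were not simulated. On the real arrays a gene whose lines differed could miss a call at such a size. TYMS, at -2.48 ± 0.93 with IM over both lines, was not called (adjusted p = 0.165, limma).

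All 10 enzymes were to be named, and of each neighbouring list up to 4 genes: called genes with the largest IM effect in both lines, then the largest uncalled ones. The 3 genes nearest to each enzyme by correlation were also found. ATF4 and SLC7A11, and which genes of the lists are given per line or per array, were chosen after their values were seen. The enzymes, lists and tests were chosen with earlier results of these data known. The alternatives were quantile normalization, brighter genes alone, trend and robust moderation, log2(value + 16), no line term or a common OR21 by IM term, the 99th percentile as background, and each array left out in turn.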

Additional observations from a re-analysis of the deposited data

Results flagged for a closer look

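The response to IM differed between the lines for 6 enzymes, by the test of that difference itself (limma, difference of log2 differences, KBM5 minus K562). It was -3.22 for PHGDH, -2.33 for ALDH1L2, -1.94 for MTHFD2, -1.91 for MTHFD1L, -1.84 for PSAT1 and -1.54 for MTHFD1. With IM in KBM5, PHGDH and ALDH1L2 were at background on 2 of 2 arrays and MTHFD1L on 1 of 2, and ALDH1L2 was at background on all 4 K562 arrays. The count of 6 was between 1 and 3 when any 1 K562 array was left out, and stayed at 6 without any 1 KBM5 array. Without 1 array of a line, the model per line fits the remaining arrays of that line exactly. The residual error then comes from the other line alone, so these counts cannot show which arrays decide the calls.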

How the results depend on the processing

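No paired analysis was possible because each line and treatment had 1 array, which leaves no replicate numbers to pair, and the line term already sets treatments against each other within a line. Without the line term, limma called 0 enzymes and 0 genes for IM over both lines, where 4262 genes had an unadjusted p under 0.05 in the fit with it. Leaving out 1 array at a time gave 0 to 6 enzymes and 115 to 557 genes for IM over both lines (1349 genes with all arrays), 1 to 6 enzymes and 454 to 3201 genes for IM in K562 (2368), and 1 to 6 enzymes and 611 to 1804 genes for its difference between lines (1796). The enzymes called between lines were 0 after quantile normalization and with log2(value + 16), and 0 to 1 with 1 array left out. Genes called for the combination against control (35) were 12 after quantile normalization, 22 among brighter genes, 0 with log2(value + 16) or no line term, and 0 to 2 with 1 array left out. Genes called for OR21 in K562 (16) were 4 among brighter genes, 27 with trend, 5 with log2(value + 16), 32 with the common OR21 by IM term and 9 to 31 with 1 array left out. In KBM5 (96) they were 62, 243, 3, 149 and 54 to 157, with 1 enzyme called under trend, and for the difference between lines (18) they were 6, 43 and 2, with 6 to 52. Quantile normalization moved the share of higher genes among the calls to 48.7% (36.1% without it) for IM over both lines, to 50.5% (39.9%) in K562 and to 41.7% (31.4%) for the combination. It turned SHMT2 to 0.15 between lines and to 0.10 for the line difference of IM. With 1 array left out these ranged from -0.17 to 0.12 and from -0.070 to 0.042. MTHFD2 ranged from -0.36 to 0.35 between lines and from -0.48 to 0.11 for OR21 in KBM5, and ALDH1L2 there from -1.59 to 0.030. MTHFD2 lost its IM call over both lines with log2(value + 16) (adjusted p = 0.0520). The cause was not tested. With the 99th percentile as background, 39 values of an enzyme on an array were above it, against 49 with the 95th. Of the values of single enzymes under alternatives other than leaving out an array, 213 kept direction and side of the threshold, 12 lost a call, 1 gained one and 2 turned. Low signal limits PSPH, GLDC and ALDH1L2, and PHGDH in KBM5 with IM.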
